A study of Mus musculus with 39 samples.

Results

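RNA labelled in the living mouse for 1 day was compared with RNA labelled for 4 days, gene by gene, in 8 of the 39 libraries of a study of muscle stem cells. The comparison was defined by the library labels: the 4 libraries named TU_1d and the 4 named TU_4d. All of these mice carried Pax7CreER/+: UPRTHA/+, and all received 4-thiouracil (4tU) every 12 hours, for 1 day in the TU_1d group and for 4 days in the TU_4d group, until their hindlimb muscles were taken. The RNA that had taken up the label was captured out of whole hindlimb muscle RNA, then copied with oligo(dT) priming, which starts at poly(A) tails. In 3 further groups of 4 libraries, RNA labelled for 6 h in the same line (TU_6h in vivo), the total RNA of hindlimb muscle (Input_muscle) and the total RNA of purified muscle stem cells (Input_MuSC, with neither 4tU nor α-amanitin) give the levels set beside the comparison. The labels give neither the age and sex of the mice nor the time from Cre induction to label, and do not say whether each replicate was its own animal. The p-values therefore reflect the spread among these libraries, which may be technical.

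UPRT, uracil phosphoribosyltransferase, joins free uracil or 4tU to a sugar phosphate, so that cells with an active enzyme build the thiol-bearing base into the RNA they make during the exposure. CreER driven by Pax7, a transcription factor of satellite cells, is meant to switch UPRT on in these stem cells, which lie along the muscle fibre and are mostly quiescent. A short exposure marks RNA made in the last hours of life, whereas a longer one also marks RNA made on the earlier days that has not yet decayed. RNA with a fast turnover is therefore read mainly from its recent synthesis under either exposure.

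The labels call these libraries muscle stem cell RNA, and the levels of cell markers did not match that name. Pax7 stood at 0.220, 0.159, 0.115 and 0.219 RPKM in the 1 d libraries, against 0.234, 0.214, 0.205 and 0.130 RPKM in the 4 d libraries, all below the 1 RPKM (reads per kilobase of transcript model, adjusted for the scaled depth of each library) needed for a test. It was at 17.9 RPKM in the purified stem cells and 0.0889 ± 0.0118 RPKM in whole muscle. The 34 transcripts of the muscle fibre list took 27.2 to 27.6% of reads in the 1 d libraries, 26.3 to 27.1% in the 4 d libraries and 24.6 to 25.2% in whole muscle. The 8 libraries are therefore called by their label duration here. A change in a gene may, among others, be fewer cells of a type or less RNA per cell. As the durations differ, it may also be labelled RNA kept from earlier days. These cannot be told apart in such bulk samples.

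Reads recovered from the deposited values numbered 46839152 to 60883815 for 1 d and 40385703 to 65442116 for 4 d. Across the 11232 genes tested, Pearson's r of log2 levels was 0.9969 to 0.9985 within the 1 d group, 0.9974 to 0.9984 within the 4 d group and 0.9857 to 0.989 between them.

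Promoters of 5 genes named below are shown first. They were chosen because they hold a match to the element of the interferon-induced genes (4 genes) or of the FoxO factors (Trim63). Interferon-induced genes are switched on through the interferon-stimulated response element. This element was searched for as GAAA, any 2 bases and GAAA again, on both strands, in the 250 bases before the start of each gene, with overlapping matches counted. The windows come from RefSeq on GRCm38.p6. The FoxO factors, which drive atrophy genes in wasting or fasted muscle, bind GTAAACA, and this was searched for in the same way. Capitals mark the matches, and each sequence runs 5′ to 3′ on the strand of its gene.
Ifit3 (chr19:34583279-34583528, plus strand): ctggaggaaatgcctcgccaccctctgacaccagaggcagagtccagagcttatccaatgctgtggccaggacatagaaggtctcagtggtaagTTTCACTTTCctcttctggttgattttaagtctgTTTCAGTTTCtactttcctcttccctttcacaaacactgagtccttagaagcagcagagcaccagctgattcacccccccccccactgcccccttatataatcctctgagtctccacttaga
Isg15 (chr4:156200819-156201068, minus strand): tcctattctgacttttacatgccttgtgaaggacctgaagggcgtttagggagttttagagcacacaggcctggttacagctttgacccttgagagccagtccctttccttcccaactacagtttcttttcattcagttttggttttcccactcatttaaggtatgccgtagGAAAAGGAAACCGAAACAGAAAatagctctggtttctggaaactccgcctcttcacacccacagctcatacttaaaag
Ifit1 (chr19:34640639-34640888, plus strand): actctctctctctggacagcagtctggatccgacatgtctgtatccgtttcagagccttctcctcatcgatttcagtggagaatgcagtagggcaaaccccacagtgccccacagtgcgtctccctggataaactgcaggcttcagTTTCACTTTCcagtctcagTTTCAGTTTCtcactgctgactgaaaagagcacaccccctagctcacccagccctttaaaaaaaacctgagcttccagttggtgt
Rsad2 (chr12:26456453-26456702, minus strand): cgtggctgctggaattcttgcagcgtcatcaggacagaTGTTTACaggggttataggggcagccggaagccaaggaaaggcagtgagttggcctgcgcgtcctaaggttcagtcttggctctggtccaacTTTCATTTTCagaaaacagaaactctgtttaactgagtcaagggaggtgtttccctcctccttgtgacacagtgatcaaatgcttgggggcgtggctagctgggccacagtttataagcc
Trim63 (chr4:134314870-134315119, plus strand): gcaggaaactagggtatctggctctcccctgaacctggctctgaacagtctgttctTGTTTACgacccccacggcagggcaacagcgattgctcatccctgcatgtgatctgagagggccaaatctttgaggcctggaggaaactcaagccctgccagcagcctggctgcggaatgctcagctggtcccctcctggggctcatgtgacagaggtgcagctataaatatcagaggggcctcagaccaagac

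Isg15 held 3 overlapping matches, Ifit3 and Ifit1 held 2 each, and Rsad2 held 1. Trim63 held 1 match to the FoxO letters, and so did Rsad2, in the first of its 2 runs of capitals. Of the 19 tested interferon-induced genes with a promoter entry, 10 (52.6%) had a match to this paired element. Among all tested genes with an entry it was 268 of 8314 (3.22%), and among all genes with an entry 936 of 27025 (3.46%). The match was in 74 of 2900 genes called higher with 1 d label (2.55%) and in 82 of 1610 called lower (5.09%). The FoxO letters were in 1 of 17 genes of the FoxO and atrophy list (5.88%), Trim63. They were in 2 of the 19 interferon-induced genes (10.5%) and in none of the 22 fuel genes with an entry. The share was 2.6% of tested genes and 3.54% of all genes with an entry. A match describes the letters only, and does not show that a factor binds there.

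A broad but shallow difference separated the durations. Of 11232 genes tested in limma, 6090 (54.2%) passed an adjusted p under 0.05, with 3736 (33.3%) higher in RNA labelled for 1 d and 2354 (21%) lower. Most differences were small: the median fold of called genes was 1.20 for those higher and 1.22 for those lower, and 20 genes (0.178%) were at least 2-fold higher and 84 (0.748%) at least 2-fold lower. The median log2 fold change (1 d over 4 d) of all tested genes was 0.04. The libraries of the groups did not overlap for 3458 genes (30.8%) that were higher and 1930 (17.2%) that were lower. These shares are the background for the gene lists below. Fold changes are differences of log2(RPKM + 0.5), given with their SE, levels are mean RPKM ± SD over 4 libraries, and adjusted p is Benjamini-Hochberg over all tested genes. Fitted together with the other groups of the table, which share one estimate of the spread, 864 genes were called, 526 higher and 338 lower. Genes named below that lost their call in that fit are given at the end of each paragraph.

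**Figure D1:**
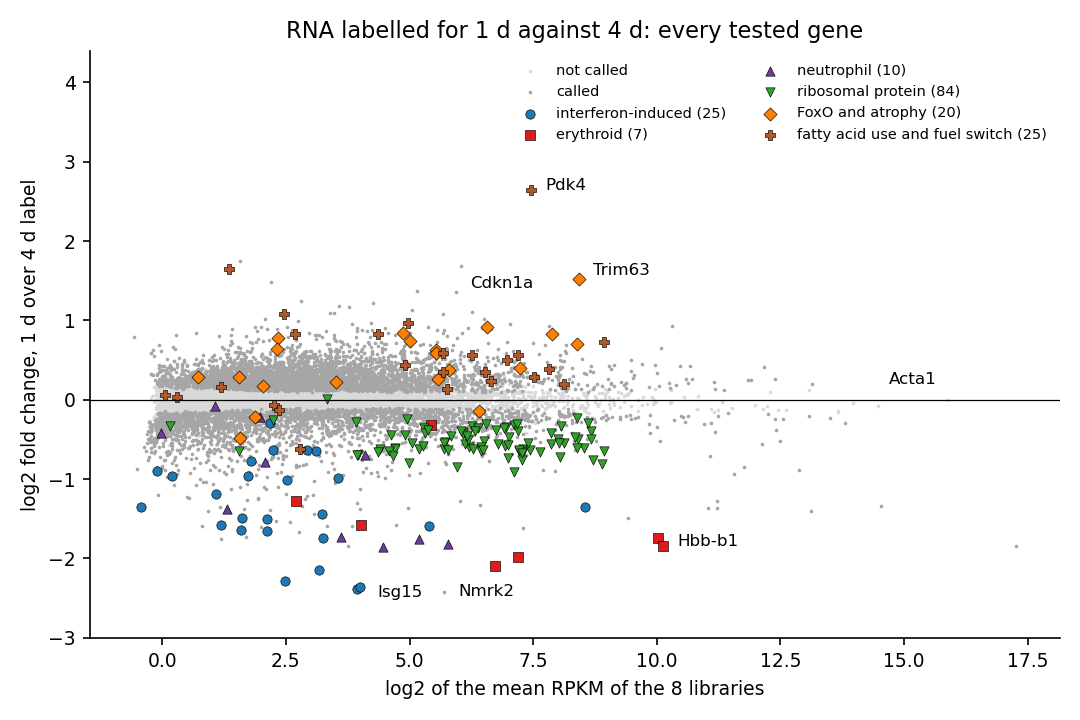
Each point is 1 of the 11232 tested genes, plotted by its level (log2 of the mean RPKM of the 8 libraries, x axis) and its log2 fold change of 1 d over 4 d label (y axis), with called genes in darker grey and 6 gene lists in colour. Pdk4 stands alone at the top with 2.65, and interferon-induced, erythroid and neutrophil genes make up much of the lower edge.

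Genes of fuel choice gave the largest rise. Pdk4, the kinase that shuts pyruvate out of the mitochondrion and so turns muscle to fat as its fuel (mm10 chromosome 6, 5483351 to 5496309), was at 226, 336, 373 and 278 RPKM in the 1 d libraries, against 56.1, 44.9, 50.7 and 38.7 RPKM in the 4 d libraries. All 1 d libraries lay above all 4 d libraries, by 6.27-fold in the fit (log2 fold change 2.65 ± 0.14, adjusted p = 4.71e-08). Of 25 genes of fatty acid use and fuel switching, 20 were higher (80%) and 2 lower (8%), against 33.3% and 21% of all genes. Their median log2 fold change was 0.39, against 0.04 for all genes. Acot1, a cytosolic thioesterase that frees fatty acids from coenzyme A, stood at 4.14 ± 0.369 RPKM for 1 d and 0.986 ± 0.217 RPKM for 4 d (1.65 ± 0.09, adjusted p = 6.99e-08), and its reads may be shared with the similar Acot2. Plin5, which coats the lipid droplets next to mitochondria, stood at 41.8 ± 1.66 RPKM for 1 d and 21.1 ± 0.665 RPKM for 4 d (0.97 ± 0.04, adjusted p = 1.18e-08). Ucp3, an uncoupling protein of the muscle mitochondrion that rises in fasting, was at 24.99, 26.6, 28.2 and 26.2 RPKM in the 1 d libraries, against 15.5, 14.4, 14.6 and 14.2 RPKM in the 4 d libraries. Its groups did not overlap (0.83 ± 0.05, adjusted p = 7.01e-08). The rise took in the transport and oxidation of fatty acids too: Fabp3, the muscle fatty acid binding protein, had a log2 fold change of 0.72, Slc25a20, the carnitine carrier, 0.57, and Acadvl, the very long chain dehydrogenase, 0.50. Angptl4, a secreted inhibitor of lipoprotein lipase, went the other way at 5.31 ± 0.452 RPKM for 1 d and 8.41 ± 0.664 RPKM for 4 d (-0.62 ± 0.07, adjusted p = 7.99e-06). Ucp2 was also lower (-0.12 ± 0.04, adjusted p = 0.0295), but lost its call when single libraries were left out. Fabp3, Slc25a20, Acadvl and Ucp2 were not called in the fit with all groups.

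Atrophy genes were higher with them. In muscle that is fasted, denervated or exposed to glucocorticoids, the FoxO factors enter the nucleus and switch on ubiquitin ligases and autophagy genes. Of 20 tested genes of this list, 16 were higher (80%) and 3 lower (15%), against 33.3% and 21% of all genes. Their median log2 fold change was 0.49. Trim63 (MuRF1), the ubiquitin ligase of thick filament proteins whose promoter is printed above (mm10 chromosome 4, 134315120 to 134329629), was at 463, 528, 563 and 476 RPKM in the 1 d libraries, against 186, 161, 199 and 162 RPKM in the 4 d libraries. Its groups stood well apart (1.52 ± 0.08, adjusted p = 3.77e-08). Fbxo32 (atrogin-1), its partner in atrophy programmes, had a log2 fold change of 0.92 ± 0.08, adjusted p = 1.50e-06, and Fbxo30, another atrophy ligase, one of 0.79 ± 0.06, adjusted p = 1.07e-06. Eif4ebp1, which holds back cap-dependent translation, stood at 300.4 ± 14.6 RPKM for 1 d and 168 ± 9.82 RPKM for 4 d (0.83 ± 0.05, adjusted p = 1.41e-07). Bnip3, a receptor for the removal of mitochondria, was at 418, 423, 412 and 403 RPKM in the 1 d libraries, against 252, 255, 276 and 236 RPKM in the 4 d libraries, without overlap (0.70 ± 0.05, adjusted p = 3.06e-07). Sesn1, a sensor that restrains mTORC1, stood at 37.7 ± 2.79 RPKM for 1 d and 20.8 ± 1.75 RPKM for 4 d (0.84 ± 0.06, adjusted p = 6.46e-07). Among the factors themselves, Foxo1 was higher (0.64 ± 0.08, adjusted p = 4.53e-05) and Foxo4 lower (-0.48 ± 0.05, adjusted p = 3.22e-06), as was Cdkn1b (-0.22). Ddit4, an mTORC1 inhibitor induced by glucocorticoids, did not pass (0.22 ± 0.09, adjusted p = 0.0628). Bnip3, Foxo4 and Cdkn1b were not called in the fit with all groups.

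**Figure D2:**
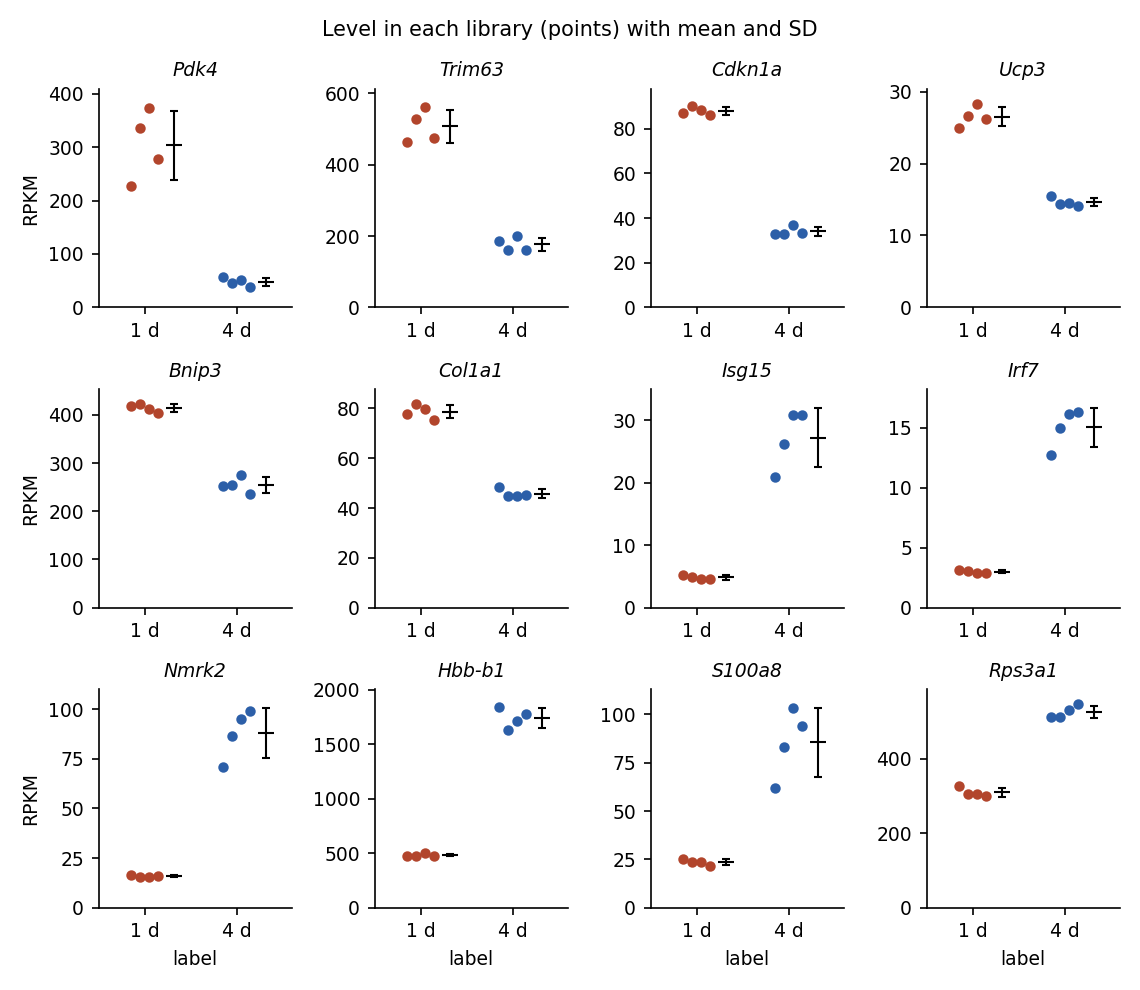
RPKM (y axis, from 0) of 12 genes in each 1 d library (red) and each 4 d library (blue), in the order of replicates 1 to 4, with the mean and SD of 4 libraries in black. In each of the 12 panels the 2 groups do not overlap: Pdk4 lies between 226 and 373 in the 1 d libraries and between 38.7 and 56.1 in the 4 d libraries.

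The 6 h label held still more of some of these genes. Pdk4 stood at 1711 ± 70.3 RPKM after 6 h, 303 ± 64.4 after 1 d and 47.6 ± 7.48 after 4 d, and at 79.9 ± 3.52 in whole muscle. Trim63 followed with 1571 ± 107, 507 ± 46.6 and 177 ± 18.6 RPKM, and 295 ± 11.9 in whole muscle. Ucp3 had 321 ± 30.5, 26.5 ± 1.33 and 14.7 ± 0.606 RPKM, with 32.3 ± 1.052 in whole muscle. Pdk4, Trim63 and Ucp3 thus stood highest in the shortest label and lowest in the longest, and their 4 d level was below that of whole muscle. Others did not: Eif4ebp1 had 213 ± 4.76, 300.4 ± 14.6 and 168 ± 9.82 RPKM after 6 h, 1 d and 4 d, and Bnip3 333 ± 7.79, 414 ± 8.21 and 255 ± 16.1 RPKM, both highest after 1 d. Among the 20 genes at least 2-fold higher with 1 d than with 4 d label, 18 were higher in the 6 h label than in whole muscle, against 36 of the 84 at least 2-fold lower (42.9%) and 2553 of the 5142 not called (49.6%). Over all 3736 genes called higher, 1839 (49.2%) were above whole muscle in the 6 h label, close to the share of those not called. The 6 h and whole muscle libraries take no part in the comparison of 1 d with 4 d.

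**Figure D3:**
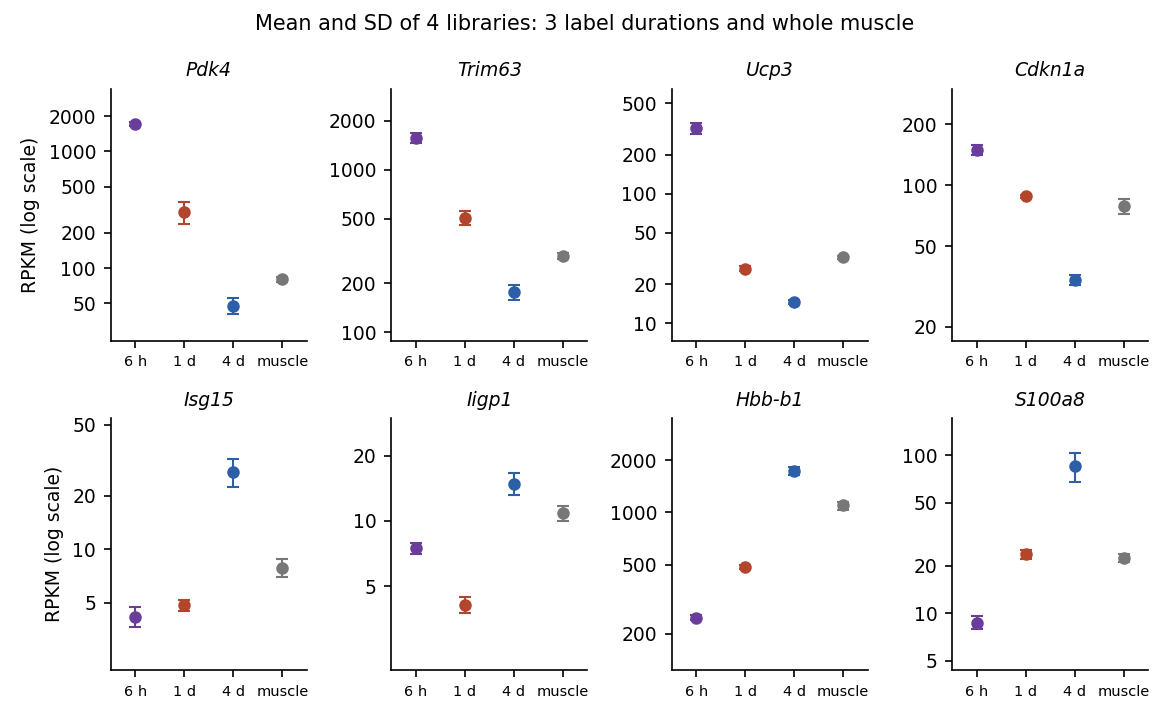
Mean RPKM with SD (4 libraries each, log axis) after 6 h, 1 d and 4 d of label and in whole muscle for 8 genes. Pdk4, Trim63, Ucp3 and Cdkn1a fall from left to right over the 3 label times, whereas Isg15, Iigp1, Hbb-b1 and S100a8 are highest in the 4 d label.

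Cdkn1a is the p21 inhibitor of the cell cycle and the best known target of p53. It was among the 12 largest rises of genes at 5 RPKM or more. The gene (mm10 chromosome 17, 29090979 to 29100722) stood at 86.9, 90.2, 88.6 and 86.2 RPKM in the 1 d libraries, against 32.9, 32.9, 37.01 and 33.3 RPKM in the 4 d libraries. Both groups were tight and far apart (1.36 ± 0.05, adjusted p = 1.13e-09). In the 6 h label it was at 149 ± 8.39 RPKM and in whole muscle at 78.4 ± 6.69 RPKM. Of 21 tested p53 targets, 13 were higher (61.9%), none lower and 8 not called, against 33.3% higher and 21% lower of all genes. Their median log2 fold change was 0.20. Mdm2, the ligase that degrades p53, stood at 19.9 ± 0.908 RPKM for 1 d and 14.1 ± 0.377 RPKM for 4 d (0.49 ± 0.04, adjusted p = 2.09e-06), and Phlda3, an inhibitor of Akt, at 327 ± 11.5 RPKM for 1 d and 232 ± 7.88 RPKM for 4 d (0.49 ± 0.04, adjusted p = 1.67e-06). Eda2r, a receptor of the TNF family, had a log2 fold change of 0.87 ± 0.08, adjusted p = 2.57e-06. Bax and Perp, which act in cell death, were not called (0.11 ± 0.05, adjusted p = 0.0911 for Bax and -0.04 ± 0.12, adjusted p = 0.796 for Perp). Sesn1, Cdkn1a and Gadd45a stand on this and on other lists. Phlda3 was not called in the fit with all groups.

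The other large rises were genes on none of the lists, apart from Ighm. Angptl7, a secreted angiopoietin-like protein, was at 26.5, 26.9, 27.1 and 26.9 RPKM in the 1 d libraries, against 12.3, 10.9, 10.2 and 11.7 RPKM in the 4 d libraries, with no overlap (1.22 ± 0.05, adjusted p = 1.14e-08). Slc7a2, which carries arginine and lysine into the cell, stood at 16.7 ± 2.23 RPKM for 1 d and 7.01 ± 0.106 RPKM for 4 d (1.19 ± 0.08, adjusted p = 1.64e-07). Odf3l2 stood at 51.7 ± 4.66 RPKM for 1 d and 19.6 ± 1.001 RPKM for 4 d (1.37 ± 0.06, adjusted p = 1.60e-08), and at 359.9 ± 29.3 RPKM in the 6 h label. Tcp11l2, Lrrc58 and Vcp-rs had log2 fold changes of 1.14, 1.17 and 1.49, and reads of Vcp-rs may be shared with the related Vcp. Adamts1, a secreted protease of the matrix, had a log2 fold change of 1.09 ± 0.06, adjusted p = 4.85e-08, and Osgin1, which is induced by oxidative stress, one of 1.09 ± 0.06, adjusted p = 4.71e-08. Ighm, the constant region of the IgM heavy chain, stood at 105 ± 3.87 RPKM for 1 d and 48.3 ± 1.27 RPKM for 4 d (1.11 ± 0.04, adjusted p = 2.51e-09), while Ms4a1, the B cell antigen CD20 (-0.58), Cd79b, part of the B cell receptor (-0.47), and the light chain Igkc (-0.49) were lower. Ms4a1, Cd79b and Igkc were not called in the fit with all groups.

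Interferon-induced genes differed in the other direction. Interferons bound at the cell surface switch on a large set of genes that hold back viruses, mark proteins with ISG15 or chop antigens for display. All 25 tested genes of this list were lower in RNA labelled for 1 d and none was higher, with a median log2 fold change of -1.35, where 21% of all tested genes were lower. The groups did not overlap for any of the 25, against 17.2% of all genes. Of the 25, 3 (Mx2, Oas2 and Ifi44) were under 1 RPKM in each 1 d library, so that they entered the test through the 4 d libraries. Mx1, at 0.230 ± 0.0622 RPKM for 1 d and 0.530 ± 0.109 RPKM for 4 d, was too low to be tested, and with no filter all 26 genes were lower.

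Isg15, the ubiquitin-like protein that is joined to others in the antiviral state (mm10 chromosome 4, 156199424 to 156200818), was at 5.27, 4.97, 4.58 and 4.54 RPKM in the 1 d libraries, against 20.9, 26.2, 30.7 and 30.8 RPKM in the 4 d libraries. The highest 1 d library lay far under the lowest 4 d library (-2.36 ± 0.10, adjusted p = 1.14e-08). Ifit3, which binds to its relative Ifit1 on foreign RNA, stood at 4.50, 4.85, 4.61 and 4.10 RPKM in the 1 d libraries, against 18.6, 27.1, 28.3 and 29.7 RPKM in the 4 d libraries, again with a wide gap (-2.38 ± 0.12, adjusted p = 2.74e-08). Ifit1 stood at 1.57 ± 0.227 RPKM for 1 d and 9.59 ± 1.56 RPKM for 4 d (-2.28 ± 0.11, adjusted p = 2.35e-08). Irf7, the factor that amplifies type I interferon production, was at 3.16, 3.04, 2.89 and 2.88 RPKM in the 1 d libraries, against 12.7, 14.9, 16.1 and 16.3 RPKM in the 4 d libraries. No 1 d library came near a 4 d library (-2.14 ± 0.07, adjusted p = 9.13e-10). Iigp1, a GTPase directed at intracellular parasites, had a log2 fold change of -1.74 ± 0.08, adjusted p = 1.60e-08, and Rsad2 (viperin), which makes a chain-ending nucleotide, one of -1.66 ± 0.06, adjusted p = 2.51e-09. Bst2 (tetherin), which holds budding viruses at the membrane, had one of -1.59 ± 0.09, adjusted p = 6.78e-08, and Rtp4, which is interferon-induced too but not on the list, one of -1.84 ± 0.08, adjusted p = 1.14e-08. The fall was smaller for Irf1, an early factor that also answers to other signals, with a log2 fold change of -0.29 ± 0.06, adjusted p = 0.00120. The 26 genes together took 0.0232 to 0.0249% of reads for 1 d and 0.0546 to 0.0656% for 4 d, against 0.0256 to 0.0285% for 6 h and 0.0299 to 0.0327% in whole muscle. The 1 d share was thus below that of whole muscle and the 4 d share above it. Among the 4 d libraries, replicate 1 was lowest for Isg15, Ifit3 and Irf7 and for the list as a whole, at 0.0546% of reads against at most 0.0249% in a 1 d library. Irf1 was not called in the fit with all groups.

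Transcripts of blood cells moved in the same direction. Of 10 tested neutrophil genes, 9 were lower and none higher, with a median log2 fold change of -1.08. Mpo was under 1 RPKM in each 1 d library and entered the test through the 4 d libraries; with no filter 9 of 12 were lower, at a median of -0.74. S100a8, part of the calprotectin that fills the neutrophil's cytoplasm, was at 25.4, 23.5, 23.5 and 21.8 RPKM in the 1 d libraries, against 62.0, 82.8, 103 and 94.0 RPKM in the 4 d libraries. The groups were apart, and the 4 d libraries spread widely (-1.82 ± 0.12, adjusted p = 2.24e-07). Camp, the antimicrobial cathelicidin of the granules, stood at 10.5, 8.504, 8.07 and 9.70 RPKM in the 1 d libraries, against 27.6, 31.6, 37.4 and 42.2 RPKM in the 4 d libraries, with no overlap (-1.85 ± 0.11, adjusted p = 1.38e-07). S100a9 and Ngp, likewise neutrophil proteins, had log2 fold changes of -1.76 and -1.73, and Mmp9, a protease that other cells make too, was not called (-0.08 ± 0.07, adjusted p = 0.324). The 12 neutrophil genes in the table summed to 77.0 to 83.9 RPKM for 1 d and 181.8 to 270.4 RPKM for 4 d. Csf3r and Mmp8 were below the filter. Mpo was not called in the fit with all groups.

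All 7 tested red cell genes were lower, with a median of -1.74. Hbb-b1, a beta-globin of the red cell, stood at 477, 478, 504 and 477 RPKM in the 1 d libraries, against 1839, 1629, 1715 and 1777 RPKM in the 4 d libraries (-1.84 ± 0.05, adjusted p = 2.34e-10). The 1 d libraries were close together, far under the lowest 4 d library. Reads of the Hba and Hbb copies can be shared, and are uncertain between copies. Alas2, which starts haem synthesis in red cell precursors and has no such copy, went with them at 7.86 ± 0.223 RPKM for 1 d and 24.5 ± 0.858 RPKM for 4 d (-1.58 ± 0.04, adjusted p = 2.34e-10). Bpgm, a red cell enzyme that whole muscle also holds, fell least (-0.31 ± 0.05, adjusted p = 1.83e-04). The 8 red cell genes summed to 1087 to 1149 RPKM for 1 d and 3579 to 4086 RPKM for 4 d, and in reads to 0.0748 to 0.0780% for 1 d, 0.230 to 0.255% for 4 d, 0.0354 to 0.0415% for 6 h and 0.149 to 0.165% in whole muscle. Bpgm was not called in the fit with all groups.

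Other white cell genes differed less. Of 18 macrophage genes, 9 were lower (50%) and 1 (F13a1, 0.32) higher (5.56%), against 21% and 33.3% of all genes, with a median of -0.15. The complement gene C1qa stood at 38.4 ± 1.58 RPKM for 1 d and 57.6 ± 1.91 RPKM for 4 d (-0.58 ± 0.04, adjusted p = 5.41e-07), while Adgre1 (F4/80, 0.08) and Csf1r, the receptor on which macrophages depend (-0.07), were not called. Of 13 lymphocyte genes, 7 were lower (53.8%) and Ighm higher (7.69%), with a median of -0.21. The 18 macrophage genes summed to 522 to 578 RPKM for 1 d and 629 to 708 RPKM for 4 d, and the 14 lymphocyte genes to 523 to 616 RPKM for 1 d and 534 to 577 RPKM for 4 d. The part of these cells in the differences of the interferon-induced genes was not tested. F13a1 and C1qa were not called in the fit with all groups.

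**Figure D4:**
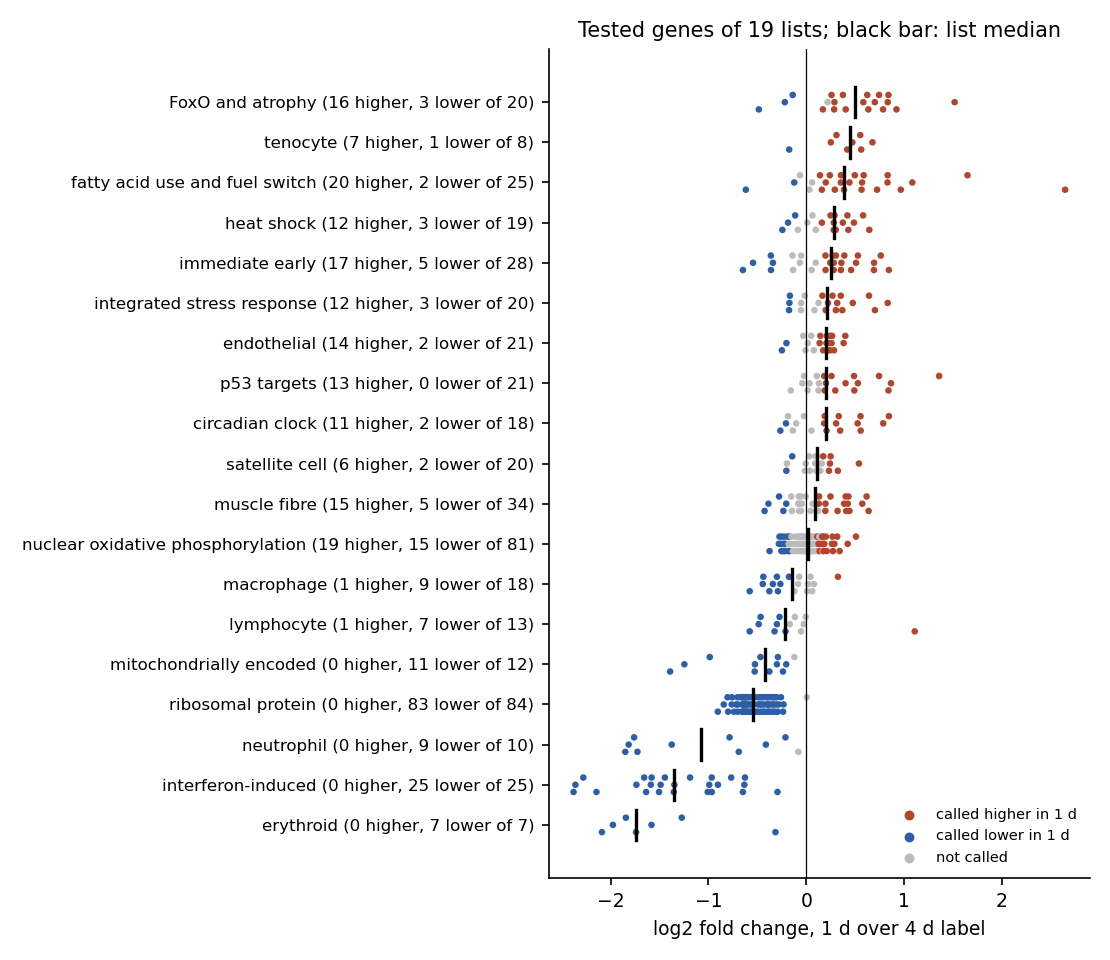
Log2 fold change of 1 d over 4 d label (x axis) for each tested gene of 19 lists (rows, sorted by median), with called genes in red where higher and blue where lower, grey where not called, and a black bar at the list's median. The interferon-induced, neutrophil and erythroid rows lie left of 0, and the FoxO row lies mostly right of 0. The ribosomal protein row runs from -0.90 to 0.01, with its median at -0.55.

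Nmrk2 had the largest fall among genes other than models known by number. It encodes the nicotinamide riboside kinase of muscle, which makes a precursor of NAD. The gene (mm10 chromosome 10, 81198170 to 81202037) was at 16.5, 15.4, 15.5 and 15.9 RPKM in the 1 d libraries, against 70.8, 86.3, 95.1 and 99.2 RPKM in the 4 d libraries, with no overlap (-2.42 ± 0.08, adjusted p = 1.46e-09). The 6 h label held 34.1 ± 1.44 RPKM and whole muscle 33.7 ± 2.93 RPKM, so the 1 d level was below and the 4 d level above both. As with the interferon-induced genes, replicate 1 was the lowest of the 4 d libraries.

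Ribosomal protein genes were lower as a block. Their mRNAs are abundant, long-lived and controlled mainly in translation. Of 84 genes, 83 were lower and none higher, all but Rps4l (0.01 ± 0.05, adjusted p = 0.938), with a median log2 fold change of -0.55. Rps3a1, of the small subunit, was at 326, 305, 305 and 301 RPKM in the 1 d libraries, against 513, 511, 529.5 and 545 RPKM in the 4 d libraries. The groups were apart (-0.76 ± 0.04, adjusted p = 7.01e-08). Rps12 stood at 96.0 ± 5.86 RPKM for 1 d and 179.9 ± 5.58 RPKM for 4 d (-0.90 ± 0.05, adjusted p = 5.37e-08) and Rps21 at 44.6 ± 1.76 RPKM for 1 d and 80.4 ± 1.499 RPKM for 4 d (-0.84 ± 0.04, adjusted p = 2.35e-08). For these 2 genes whole muscle was below both durations, at 45.0 ± 2.41 RPKM for Rps12 and 27.2 ± 0.881 RPKM for Rps21. Over the whole list it was not below the 1 d label. Summed RPKM was 8751 to 9873 for 1 d, 12706 to 14048 for 4 d and 8758 to 9156 in whole muscle. The list took 0.811 to 0.869% of reads for 1 d, 1.14 to 1.22% for 4 d, 0.691 to 0.735% for 6 h and 0.695 to 0.718% in whole muscle. Reads can be shared with the many processed pseudogenes of this family, so single values are uncertain. The genes that build ribosomes went the other way, with a median of 0.19. Of 25, 15 were higher (60%) and 3 lower (12%), against 33.3% and 21% of all genes. Gar1, of the particles that modify ribosomal RNA, stood at 7.85 ± 0.295 RPKM for 1 d and 5.07 ± 0.356 RPKM for 4 d (0.58 ± 0.05, adjusted p = 2.29e-06), and Nop2, which methylates it, at 16.2 ± 0.544 RPKM for 1 d and 11.7 ± 0.366 RPKM for 4 d (0.46 ± 0.04, adjusted p = 2.38e-06). Of 31 proteasome genes, 17 were higher (54.8%) and 4 lower (12.9%). Among the higher ones, Psmd12 of the lid stood at 113 ± 3.59 RPKM for 1 d and 80.1 ± 2.32 RPKM for 4 d (0.49 ± 0.04, adjusted p = 1.03e-06). Psmd12 was not called in the fit with all groups.

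Among respiratory genes, only the mitochondrially encoded list moved as a whole. Of 12 mitochondrially encoded genes, 11 were lower and none higher, with a median of -0.42. ND1, a subunit of complex I, stood at 4753 ± 166 RPKM for 1 d and 6834 ± 231 RPKM for 4 d (-0.52 ± 0.05, adjusted p = 5.00e-06), and ND5, not called, had -0.12 ± 0.06, adjusted p = 0.133. The largest folds, of COX2, ATP6 and COX3, rest on 50 to 1035 reads a library, where other genes of the same genome had up to 461764. Of 81 nuclear genes of oxidative phosphorylation, 19 were higher (23.5%) and 15 lower (18.5%), under the shares of all genes (33.3% and 21%). Their median was 0.02, and its sign turned with the scaling of the libraries. Ndufs1, of complex I, stood at 158 ± 4.65 RPKM for 1 d and 111 ± 4.18 RPKM for 4 d (0.51 ± 0.04, adjusted p = 1.12e-06), and Atp5g2, of the ATP synthase, at 213 ± 7.82 RPKM for 1 d and 276 ± 8.99 RPKM for 4 d (-0.37 ± 0.04, adjusted p = 1.44e-05). ND1, Ndufs1 and Atp5g2 were not called in the fit with all groups.

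Called genes also differed in the length of their gene models, which the choice of libraries did not use. The median model was 4026.5 bases for genes higher with 1 d label, 2263 for genes lower and 3336.5 for those not called. Tested genes were put in 5 bins of equal size by length. In the shortest bin (up to 1764 bases) 296 were higher and 927 lower, at a median log2 fold change of -0.11. In the longest bin (from 5804 bases) 905 were higher and 296 lower, at a median of 0.09. Without the ribosomal protein genes the shortest bin had a median of -0.11 as well. Gene length is shared by many genes of one family, so these are descriptions across genes, which are not independent.

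Muscle fibre genes were mixed. Acta1, the actin of the sarcomere and the most abundant of these mRNAs, was at 62206, 60036, 60614 and 58548 RPKM in the 1 d libraries, against 59769, 58950.0, 61168 and 62421 RPKM in the 4 d libraries. The groups overlapped and the gene did not pass the test (-0.01 ± 0.07, adjusted p = 0.951), and its sign turned with library sizes from all reads. Of 34 fibre genes, 15 were higher (44.1%) and 5 lower (14.7%), against 33.3% and 21% of all genes, at a median of 0.09. The higher ones included myosins of slow, intermediate and fast fibres: Myh7 stood at 35.8 ± 1.22 RPKM for 1 d and 23.9 ± 0.478 RPKM for 4 d (0.57 ± 0.04, adjusted p = 2.95e-07), Myh2 at 134 ± 4.27 RPKM for 1 d and 86.0 ± 0.965 RPKM for 4 d (0.64 ± 0.04, adjusted p = 9.89e-08), and Myh4 had a log2 fold change of 0.41 ± 0.05, adjusted p = 2.90e-05. Actn2, which anchors actin at the Z disc, stood at 341 ± 10.2 RPKM for 1 d and 222 ± 4.32 RPKM for 4 d (0.62 ± 0.04, adjusted p = 1.68e-07). Ttn, the giant spring of the sarcomere, was lower (-0.43 ± 0.06, adjusted p = 5.13e-05), as was Ryr1, the calcium release channel of the fibre (-0.39 ± 0.04, adjusted p = 1.71e-05). Among genes of myogenic differentiation, Actc1, the cardiac actin that developing muscle uses, was at 1537, 1736, 1819 and 1592 RPKM in the 1 d libraries, against 894, 851, 869 and 892 RPKM in the 4 d libraries, without overlap (0.93 ± 0.06, adjusted p = 1.20e-07). Myf6 (MRF4), the myogenic factor of mature fibres, stood at 314 ± 9.91 RPKM for 1 d and 212 ± 7.25 RPKM for 4 d (0.56 ± 0.04, adjusted p = 5.64e-07). Ankrd2, a stretch-responsive protein, stood at 296 ± 14.7 RPKM for 1 d and 155 ± 10.2 RPKM for 4 d (0.93 ± 0.05, adjusted p = 8.12e-08). Myh7, Myh2, Myh4, Actn2, Ttn, Ryr1, Actc1, Myf6 and Ankrd2 were not called in the fit with all groups.

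Satellite cell genes gave few calls. Of 26 in the table, 20 were tested, 6 were higher and 2 lower, at a median of 0.11, so the share called was under that of all genes (54.2%). Pax7, Pax3, Calcr, Cxcr4, Megf10 and Tenm4 were below the filter. Myf5, a determination factor of the lineage, was at 0.977, 1.61, 1.41 and 1.45 RPKM in the 1 d libraries, against 1.48, 1.47, 1.48 and 0.611 RPKM in the 4 d libraries. The groups overlapped (0.11 ± 0.17, adjusted p = 0.620), and the value turned to -0.10 without replicate 4 of the 4 d group, which was the lowest of the 8. Myod1, the partner of Myf5 in commitment, stood at 31.99 ± 1.33 RPKM for 1 d and 26.9 ± 0.379 RPKM for 4 d (0.24 ± 0.04, adjusted p = 3.04e-04), below the 93.7 RPKM of isolated cells. Heyl, a Notch target of quiescent satellite cells and of vessel walls, stood at 2.49 ± 0.132 RPKM for 1 d and 1.56 ± 0.0822 RPKM for 4 d (0.54 ± 0.06, adjusted p = 6.52e-06). Itgb1, the integrin of the niche contact, stood at 58.8 ± 1.66 RPKM for 1 d and 46.9 ± 1.59 RPKM for 4 d (0.32 ± 0.04, adjusted p = 3.17e-05). Of 15 Notch pathway genes, 7 were higher and 1 lower, at a median of 0.15. Notch4, 1 of the 7, was under 1 RPKM in each 4 d library, and with no filter 6 of 18 were higher and none lower, at a median of 0.03. Uprt, the mouse's own gene of that name, was at 0.474 ± 0.0797 RPKM for 1 d and 0.464 ± 0.0431 RPKM for 4 d and was not tested, and of 11 uracil and uridine salvage genes 2 were higher and 2 lower. Myod1, Heyl, Itgb1 and Notch4 were not called in the fit with all groups.

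Gene lists of the other cell types of muscle gave mixed counts. Of 8 tested tenocyte genes, 7 were higher and 1 lower, at a median of 0.45. The lower one, Col12a1, was under 1 RPKM in each 1 d library, and with no filter 8 of 11 were higher and 1 lower, at a median of 0.31. Fmod, a proteoglycan of tendon, stood at 25.5 ± 0.661 RPKM for 1 d and 15.7 ± 0.281 RPKM for 4 d (0.68 ± 0.04, adjusted p = 6.95e-08). Of 21 endothelial genes, 14 were higher and 2 lower, at a median of 0.21, among them Plvap of fenestrated vessels (0.38 ± 0.05, adjusted p = 5.44e-05). Fibro-adipogenic genes split, with 9 higher and 3 lower of 20. Col1a1, the main fibrillar collagen, was at 77.6, 81.7, 79.9 and 75.5 RPKM in the 1 d libraries, against 48.6, 44.7, 44.8 and 45.1 RPKM in the 4 d libraries, without overlap (0.77 ± 0.04, adjusted p = 6.73e-08). Dpt (dermatopontin), a matrix protein of fibroblasts, was lower, at 17.95, 15.3, 15.7 and 20.2 RPKM in the 1 d libraries, against 43.7, 44.9, 46.0 and 46.2 RPKM in the 4 d libraries. Its groups were far apart (-1.37 ± 0.07, adjusted p = 4.77e-08). Ly6a (Sca-1), an antigen of these cells and of endothelium that interferon also induces, was lower as well (-0.90 ± 0.06, adjusted p = 2.37e-07). Of 16 collagens, 6 were higher and 2 lower, with Col4a1 of the basement membrane at 26.8 ± 1.16 RPKM for 1 d and 16.9 ± 0.0743 RPKM for 4 d (0.65 ± 0.04, adjusted p = 1.54e-07). Of 13 smooth muscle and pericyte genes, 2 were higher and 6 lower, with Tagln at 14.8 ± 0.228 RPKM for 1 d and 21.4 ± 0.807 RPKM for 4 d (-0.52 ± 0.04, adjusted p = 7.44e-07). Of 9 Schwann cell genes 2 were higher and 2 lower, and of 15 adipocyte genes 6 were higher and 4 lower. The counts of the collagen, Schwann cell and adipocyte lists were near or under the shares of all genes (33.3% higher, 21% lower). Col12a1 and Plvap were not called in the fit with all groups.

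Among genes that respond within hours to stress or handling, the immediate early, heat shock and integrated stress response lists were mostly higher. Of all tested genes, 33.3% were higher and 21% lower. Of 28 tested immediate early genes, 17 were higher (60.7%) and 5 lower (17.9%), at a median of 0.26. Jun, of the AP-1 factor, was at 71.2, 72.3, 75.2 and 73.9 RPKM in the 1 d libraries, against 48.0, 42.7, 46.1 and 43.6 RPKM in the 4 d libraries, with no overlap (0.69 ± 0.04, adjusted p = 1.75e-07). Fos, its partner, stood at 7.88, 8.07, 7.57 and 7.602 RPKM in the 1 d libraries, against 4.67, 5.10, 4.43 and 4.32 RPKM in the 4 d libraries, likewise apart (0.69 ± 0.05, adjusted p = 6.18e-07). Egr1 stood at 4.98 ± 0.502 RPKM for 1 d and 2.72 ± 0.143 RPKM for 4 d (0.76 ± 0.07, adjusted p = 1.41e-06) and Gadd45b at 41.6 ± 2.17 RPKM for 1 d and 22.9 ± 1.56 RPKM for 4 d (0.85 ± 0.05, adjusted p = 1.75e-07), whereas Klf10, a target of TGF-beta, was lower at 17.1 ± 0.861 RPKM for 1 d and 26.98 ± 1.08 RPKM for 4 d (-0.65 ± 0.05, adjusted p = 4.27e-07). These levels are far from those of isolated cells, where Fos was at 876 RPKM and Egr1 at 1022 RPKM. Of 19 heat shock genes 12 were higher and 3 lower, at a median of 0.28, with the co-chaperone Bag3 at 66.0 ± 2.02 RPKM for 1 d and 42.0 ± 0.564 RPKM for 4 d (0.65 ± 0.04, adjusted p = 8.50e-08) and the chaperone of the endoplasmic reticulum Hspa5 at 105 ± 4.62 RPKM for 1 d and 77.9 ± 1.16 RPKM for 4 d (0.43 ± 0.04, adjusted p = 3.51e-06). Hspa1a was at 3.10 ± 0.209 RPKM for 1 d and 1.90 ± 0.102 RPKM for 4 d (0.58 ± 0.06, adjusted p = 4.35e-06), and shares reads with its copy Hspa1b. Of 20 integrated stress response genes, 12 were higher and 3 lower, led by Eif4ebp1 and by the lipoprotein receptor Vldlr (0.70 ± 0.04, adjusted p = 8.50e-08). The list of NF-kB signalling and cytokines went the other way: of 18 tested, 6 were lower (33.3%) and 2 higher (11.1%), at a median of -0.10. Cxcl10, a chemokine that interferon induces, was lower (-0.59 ± 0.11, adjusted p = 5.59e-04) and under 1 RPKM in each 1 d library. Hspa5, Hspa1a and Cxcl10 were not called in the fit with all groups.

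Of 18 tested circadian clock genes, 11 were higher and 2 lower, at a median of 0.20. The clock runs as a loop in which BMAL1 and CLOCK switch on the Per and Cry repressors, which then shut them off. Arntl, which encodes BMAL1, was at 19.97, 19.7, 19.04 and 18.7 RPKM in the 1 d libraries, against 11.1, 10.997, 11.3 and 10.7 RPKM in the 4 d libraries. The groups were apart (0.79 ± 0.04, adjusted p = 3.60e-08). Cry2, a repressor of the loop, stood at 9.52, 10.6, 10.99 and 9.72 RPKM in the 1 d libraries, against 5.35, 5.46, 5.73 and 5.28 RPKM in the 4 d libraries, with no overlap (0.85 ± 0.05, adjusted p = 1.41e-07). Nr1d1 (REV-ERB alpha), which represses Arntl, was higher as well (0.53 ± 0.04, adjusted p = 1.39e-06), and Per1 was not called (-0.14 ± 0.06, adjusted p = 0.0676). Arntl, Cry2 and Nr1d1 thus lay on the same side, while Per3 was lower (-0.21 ± 0.05, adjusted p = 0.00381) and Cry1 was not called (-0.02 ± 0.05, adjusted p = 0.704). The labels give no hour of harvest. Of 18 genes of the glucocorticoid and metallothionein list, 8 were higher (44.4%) and 3 lower (16.7%), against 33.3% and 21% of all genes. Among the higher ones, Fkbp5, a chaperone of the glucocorticoid receptor, stood at 33.4 ± 2.17 RPKM for 1 d and 18.7 ± 1.23 RPKM for 4 d (0.82 ± 0.06, adjusted p = 3.29e-07). Glul, glutamine synthetase, stood at 130.2 ± 5.74 RPKM for 1 d and 70.0 ± 3.61 RPKM for 4 d (0.89 ± 0.05, adjusted p = 5.35e-08). Genes of fat and sterol synthesis were split, with 6 higher and 4 lower of 21: Scd1, the fatty acid desaturase, stood at 148 ± 3.88 RPKM for 1 d and 97.9 ± 4.03 RPKM for 4 d (0.59 ± 0.04, adjusted p = 3.58e-07) and Srebf1, the factor that drives it, was lower at 24.5 ± 1.03 RPKM for 1 d and 35.8 ± 3.47 RPKM for 4 d (-0.53 ± 0.06, adjusted p = 2.24e-05). Per3 and Scd1 were not called in the fit with all groups.

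Reads on gene models known by number, many of them of repeated or ribosomal sequence, were fewer with 1 d label. The 1140 models, counted with Mir6236, Lars2 and the mitochondrial rRNA, took 2.88, 3.16, 3.46 and 3.59% of reads in the 1 d libraries, against 8.35, 6.91, 6.91 and 6.35% in the 4 d libraries. They took 19.9 ± 2.46% after 6 h, mostly Gm10800, and 1.047 ± 0.0585% in whole muscle. Gm42418, which overlaps a ribosomal RNA gene, took 0.663 ± 0.115% for 1 d and 1.71 ± 0.251% for 4 d. With library sizes taken without these models, 3252 genes were called higher and 2690 lower, and the median log2 fold change of all genes became 0.02. On a list of non-coding RNAs, 3 of the 6 tested were lower and none higher. Neat1, the scaffold of paraspeckles, had a log2 fold change of -0.31 ± 0.05, adjusted p = 1.97e-04. Malat1 had one of -0.33 ± 0.09, adjusted p = 0.00812, and Gas5 one of -0.40 ± 0.05, adjusted p = 5.35e-05. Neat1, Malat1 and Gas5 were not called in the fit with all groups.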

How the data were processed

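Per the submitters' processing notes, the authors worked on mm10 with STAR, Trim Galore, edgeR and featureCounts (Subread), with no versions stated. The authors' deposited RPKM values (1 table, 32 libraries, 16979 genes) were used as they are. Multiplied by gene length and a factor per library, in the 20 libraries read here 100% of them were whole numbers of reads to within 0.1, and this gave depths and the authors' scaling factors (0.7131 to 0.7567 for 1 d, 0.7114 to 0.7397 for 4 d). Of 1488 genes with no symbol in the file, 1350 were named from GENCODE M21.

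The test was limma 3.58.1 (R 4.3.3) with a mean trend on log2(RPKM + 0.5), which understates folds of low genes, over genes at 1 RPKM or more in 3 of the 8 libraries. Groups came from the library labels. The members and gene lists were chosen with earlier results of these data known. The rule named 12 rises and 12 falls, called, at 5 RPKM or more and without overlap; per list, the 4 members of lowest adjusted p; and 9 fixed genes. Other list members were picked for the text with their values known. The script was tested on simulated data. Same-numbered libraries did not deviate together (correlations -0.098 to 0.109), so they were not treated as pairs. No 2 libraries were identical, and replicates differed by more than read sampling (chi-square per gene 4.73 to 17.8). In the 1 d group, pairs with replicate 1 had 14.1 to 17.8 and the other pairs 4.73 to 6.91, so replicate 1 stood apart. In the 4 d group, pairs with replicate 1 had 10.04 to 17.3 and the other pairs 5.20 to 10.35. No source used here states whether counting used strand, so overlapping genes are uncertain. Other steps used Python 3.11.15, pandas 2.3.3, numpy 2.4.6 and matplotlib 3.10.9. Some items are not reported here. Alternatives varied the pseudocount, filter, scaling, model, and libraries.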

Additional observations from a re-analysis of the deposited data

Results flagged for a closer look

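In 15 of 274 groups of 4 libraries (137 genes named in the text, both durations), 1 library stood far from the other 3 by Dixon's test of the gap against the range. Chance gives about 1 in 20 such groups where they are independent, and 5.47% were found here. These genes share the same 8 libraries and were partly chosen by their values, so that rate is no measure for them. Replicates 1 and 4 of the 1 d group held 5 of the flagged values each. In replicate 1 of the 1 d group, Acadvl stood at 162.3 RPKM against 139.8 to 142.8 in the other 3, Cd79b at 7.18 against 5.87 to 6.03, Igkc at 93.6 against 70.4 to 72.8 and Rps3a1 at 326.4 against 300.9 to 304.9, and Ryr1 was lower at 44.9 against 49.4 to 50.2. In replicate 4 of the 1 d group, COX2 stood at 2.56 against 2.17 to 2.19, and 4 genes were lower than in the others: Ly6a at 162.0 against 174.4 to 176.5, Ndufs1 at 150.8 against 158.9 to 160.6, Scd1 at 142.2 against 149.2 to 150.6 and Xirp1 at 23.2 against 24.9 to 25.2. Replicate 3 of the 1 d group held Hbb-b1 at 503.7 against 477.1 to 478.2. In the 4 d group, Cdkn1a stood at 37.01 in replicate 3 against 32.9 to 33.3, Col1a1 at 48.6 against 44.7 to 45.1 and Malat1 at 193.4 against 174.3 to 175.5 in replicate 1, and Myf5 at 0.611 in replicate 4 against 1.47 to 1.49.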

How the results depend on the processing

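The count of 6090 called genes (3736 higher, 2354 lower) stayed within 1.5 times under 2 other pseudocounts, 2 other filters, 2 other scalings and limma-voom on the recovered reads, and no gene called under both changed direction. With no filter 3758 were higher and 3356 lower of 16979, and with library sizes from all reads 4172 and 2011, and limma-voom called 3827 and 2412. Fitted with all groups of the table, 864 genes were called, 526 higher and 338 lower; the spread is then estimated over the other groups too. In that fit 24 of 25 interferon-induced and 51 of 84 ribosomal protein genes were called lower, and 8 of 20 FoxO and 6 of 25 fuel genes higher, and 94 of the 195 single genes followed lost their call. Leaving out 1 library gave 5347 to 6380 called genes, 3301 to 3700 higher and 2033 to 2680 lower. With the replicate block, 3623 were higher and 2296 lower, but same-numbered libraries share only a number. A scaling without models known by number, chosen after seeing the data, gave 3252 and 2690. Among named genes, values that turned in sign were all uncalled ones, and the cause was not tested. With library sizes from all reads Acta1 was 0.0186 and Cry1 0.0006, and with 1 library left out they ran from -0.0201 to 0.0091 and from -0.0519 to 0.0003. In the same fits Myf5 ran from -0.0995 to 0.2158, Perp from -0.1528 to 0.0951 and Rps4l from -0.0396 to 0.0318, and Rps4l was -0.0274 without the numbered models. Ucp2 lost its call in 6 of 8 fits without a library. Tests by edgeR and DESeq2 were not run, since the deposited unit is RPKM.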

Other observations

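A few other gene lists had counts close to those of all genes (33.3% higher, 21% lower), with single genes that differed between the durations. Of 11 tested genes of the neuromuscular junction, 5 were higher with 1 d label (45.5%) and 3 lower (27.3%), at a median log2 fold change of 0.11. Agrn, 1 of the 3, was under 1 RPKM in each 1 d library, and with no filter 5 of 13 were higher and 3 lower, at a median of 0.04. Musk, the receptor kinase that gathers acetylcholine receptors under the nerve, stood at 6.19 ± 0.143 RPKM for 1 d and 3.92 ± 0.321 RPKM for 4 d (0.60 ± 0.05, adjusted p = 2.46e-06), and Dok7, its cytoplasmic activator, at 8.03 ± 0.139 RPKM for 1 d and 5.06 ± 0.277 RPKM for 4 d (0.62 ± 0.05, adjusted p = 5.30e-07). Rapsn, which ties the receptors to the skeleton of the cell, was lower at 39.9 ± 1.84 RPKM for 1 d and 45.7 ± 1.99 RPKM for 4 d (-0.19 ± 0.05, adjusted p = 0.00367). Musk was at 25.1 ± 3.84 RPKM in the 6 h label and 5.79 ± 0.194 RPKM in whole muscle. Of 18 genes that respond to calcium and exercise, 8 were higher (44.4%) and 5 lower (27.8%), at a median of 0.06. Rcan1, the inhibitor of calcineurin, stood at 38.8 ± 1.44 RPKM for 1 d and 27.8 ± 1.17 RPKM for 4 d (0.48 ± 0.04, adjusted p = 2.69e-06) and Xirp1, an actin binding protein of strained muscle, at 24.6 ± 0.900 RPKM for 1 d and 16.3 ± 0.169 RPKM for 4 d (0.58 ± 0.04, adjusted p = 2.78e-07). Agrn, Dok7, Rapsn and Xirp1 were not called in the fit with all groups.

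Many genes of cell division were low, and 14 of the 25 in the table passed the filter. Of the 14 tested, 4 were higher (28.6%) and 5 lower (35.7%), at a median whose sign turned with the scaling. With no filter 4 of 25 were higher and 8 lower, at a median of -0.03. Cdc20, which takes cells out of metaphase, stood at 1.15 ± 0.211 RPKM for 1 d and 1.76 ± 0.174 RPKM for 4 d (-0.46 ± 0.09, adjusted p = 0.00104), and Rrm2, which makes the building blocks of DNA, at 1.98 ± 0.344 RPKM for 1 d and 1.30 ± 0.133 RPKM for 4 d (0.46 ± 0.09, adjusted p = 0.00141). Of 219 tested Zfp zinc finger genes, 52 were higher and 38 lower, less than the shares of all genes (33.3% and 21%), and their median of 0.01 also turned with the scaling. Of these, 6 entered the test through the 4 d libraries and 1 through the 1 d libraries, and with no filter 53 of 322 were higher and 58 lower, at a median of -0.03. Of 12 genes of myogenic differentiation, 6 were higher (50%) and 3 lower (25%), at a median of 0.13. Cdc20 and Rrm2 were not called in the fit with all groups.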
